A study of Mus musculus with 24 samples.

Results

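The genes described here are the insulin-like growth factors Igf1 and Igf2, their receptors Igf1r and Igf2r, and the binding proteins Igfbp2, Igfbp3, Igfbp4, Igfbp5, Igfbp6 and Igfbp7. They were taken by symbol from the table of raw read counts, which gives 10 genes of the 47480 in the table. All 10 passed the filter on low counts that left 14772 genes for testing. The study sequenced mRNA of mouse embryonic fibroblasts (MEFs), connective tissue cells grown from embryos, all labelled wild type. There were 8 groups of 3 libraries, 24 in all. A group carried either siCTRL, taken here as a control small interfering RNA, or siCop1, taken as one against Cop1, the substrate receptor of a ubiquitin ligase. Each siRNA was combined with the solvent DMSO or with KL001, a small molecule that stabilises the cryptochrome proteins of the circadian clock. Each of those 4 combinations was studied without and with an agent that the labels write as Dexa. So siCTRL DMSO, siCTRL DMSO Dexa, siCTRL KL001 and siCTRL KL001 Dexa stand against the same 4 treatments with siCop1. The labels give no dose, exposure time or embryo of origin, and no label says that replicates came from separate cultures, so p-values measure the spread between these libraries.

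The 2 growth factors are secreted peptides related to insulin. Igf1r is the tyrosine kinase receptor through which both act on growth and survival, whereas Igf2r, also the cation-independent mannose-6-phosphate receptor, takes Igf2 to lysosomes. The binding proteins hold the factors outside the cell, lengthen their life and limit or deliver them to the receptor. Igfbp7 is a relative that binds the factors weakly. Fibroblasts are a known source of Igf1 and of several binding proteins.

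Libraries held 21409988 to 27875023 counts, of which the 10 genes together took 22517 to 38779. Rfwd2, the older symbol of Cop1, measured 24.99 to 29.72 CPM (counts scaled to library size) in the 12 siCTRL libraries and 4.33 to 5.79 CPM in the 12 siCop1 libraries, so the groups did not overlap. All 10 fibroblast markers were detected in every group, with a summed level of 41080 to 58360 CPM. Dcn and Lum were low, at 1.55 to 4.58 and 0.233 to 1.67 CPM. The collagen genes Col1a1 (14650 to 23500 CPM) and Col1a2 (11750 to 16930 CPM) made up most of the sum. That sum was 46870 to 58360 CPM in siCTRL libraries and 41080 to 50060 CPM in siCop1 libraries, and it was lowest in the siCop1 KL001 groups. Heart muscle markers exceeded 50 CPM in siCTRL DMSO replicate 1, siCTRL DMSO Dexa replicate 2 and siCTRL KL001 replicate 2, and stayed at 2.61 to 5.09 CPM in the siCop1 libraries. Squamous epithelium markers exceeded 30 CPM in siCop1 DMSO Dexa replicate 1 and siCop1 KL001 Dexa replicate 1. Where leaving these 5 libraries out changed a call, the value without them is given. In bulk RNA, fewer cells of a type and less RNA per cell cannot be told apart.

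Per kilobase of exon, the genes fell into levels that differed by more than the spread between libraries. In siCTRL DMSO, Igfbp4 at 112 ± 3.36 CPM per kb (SD, n = 3) and Igfbp7 at 107 ± 6.96 CPM per kb were highest and overlapped. Igfbp6 at 59.8 ± 2.18 and Igf2r at 56.8 ± 3.82 CPM per kb came next and overlapped. A wide gap followed, then Igf1r at 7.35 ± 0.46 and Igfbp3 at 7.09 ± 0.34 CPM per kb, which overlapped, and Igfbp5 at 5.81 ± 0.51 CPM per kb. Igf1 stood at 1.93 ± 0.14 CPM per kb. Igfbp2 and Igf2 were the lowest, at 0.139 ± 0.061 and 0.130 ± 0.097 CPM per kb, and could not be ordered. The order was the same under RLE scaling in all 8 groups. The order differed between groups at several levels. Igfbp4 lay above Igfbp7 without overlap in siCTRL KL001 and siCop1 KL001, and Igfbp7 lay above Igfbp4 without overlap in siCop1 DMSO and in the 4 groups with Dexa. Igfbp6 and Igf2r also exchanged ranks. Lower down, Igfbp3 ranked 6 of 10 in both siCTRL DMSO groups, 7 in both siCTRL KL001 groups and both siCop1 groups with Dexa, and 8 in both siCop1 groups without Dexa, where it lay below Igf1. Igfbp4 lay above Igfbp6 without overlap in 6 groups, and the 2 overlapped in siCop1 DMSO Dexa and siCop1 KL001 Dexa.

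**Figure D1:**
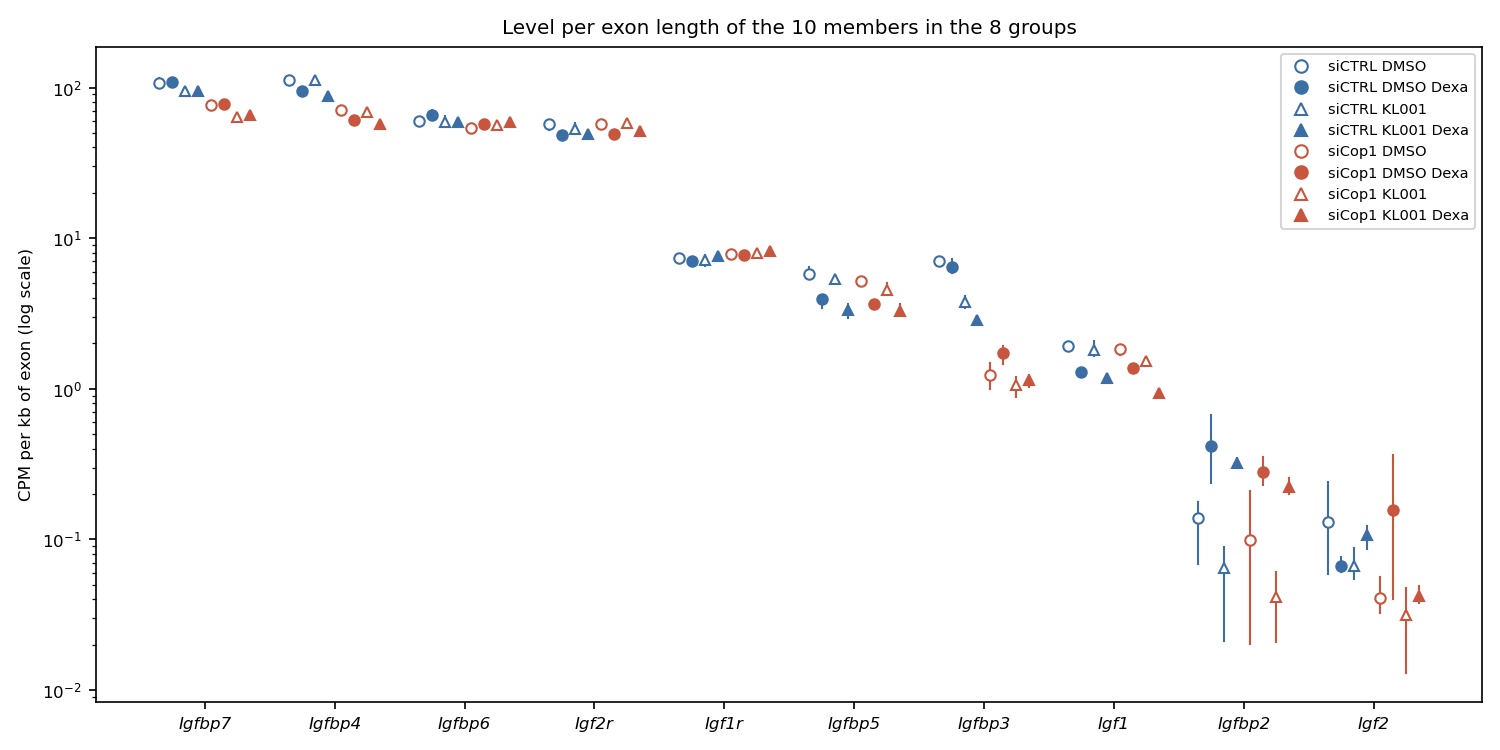
Level of each gene in CPM per kb of exon (log scale) in the 8 groups. Symbols are means of 3 libraries and lines run from the lowest to the highest library; Igfbp7, Igfbp4, Igfbp6 and Igf2r form a band above the other 6 genes in every group, and Igfbp2 and Igf2 lie lowest.

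In the comparisons that follow, levels are CPM on the TMM scale, listed for replicates 1, 2 and 3, and changes are log2 fold changes ± SE with adjusted p-values, which come from the quasi-likelihood test of edgeR with the Benjamini-Hochberg method over all 14772 genes. "Changed", "rose" and "fell" are used for an adjusted p below 0.05. Each group enters several comparisons, so those that share a group are not independent, and their values are set side by side.

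The Dexa comparisons ask what the agent did under each siRNA and compound. Dexa lowered Igf1, Igfbp4 and Igfbp5 in all 4 backgrounds and raised Igfbp2 in all 4. Igf2r fell in 3 of the 4. Igf1r, Igfbp6 and Igfbp7 did not pass the test in any of them, but without the 5 libraries of high heart or squamous markers Igfbp6 (0.21, adjusted p = 0.00359) and Igfbp7 (0.13, adjusted p = 0.0485) passed in siCTRL DMSO. In siCTRL DMSO 5 of the 10 genes changed, beside 26.8% of all genes tested. The count was again 5 in siCTRL KL001, beside 26.8% of all genes, and in siCop1 KL001, beside 24.5%. It was 7 in siCop1 DMSO, beside 23.7%, and 4 there without the 5 libraries of high heart or squamous markers. The median log2 fold change of the 10 genes lay between -0.19 and 0.040, beside -0.010 to 0.0020 over all genes.

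The siCop1 comparisons ask what siCop1 did under each compound, without and with Dexa. siCop1 lowered Igfbp3, Igfbp4 and Igfbp7 in all 4 backgrounds. In DMSO without Dexa 4 of the 10 genes fell and 0 rose, beside 16.6% and 12.8% of all genes (29.4% called in all). In DMSO with Dexa 4 fell and 0 rose, beside 16.7% and 14.4% (31.1% in all). In KL001 without Dexa 5 fell and 1 rose, beside 18.2% and 14.5% (32.7% in all), and in KL001 with Dexa 4 fell and 0 rose, beside 16.3% and 13.7% (30.1% in all). The median over the 10 genes was -0.33, -0.15, -0.40 and -0.42 in those groups in the order DMSO without Dexa, DMSO with Dexa, KL001 without Dexa and KL001 with Dexa, while the median over all genes stayed within -0.010 to 0.0010.

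KL001 lowered Igfbp7 in all 4 backgrounds and Igfbp3 in 3, and raised none of the 10 genes. In siCTRL without Dexa 2 of the 10 fell and 0 rose, beside 3.51% and 3.22% of all genes (6.73% called in all), and with Dexa 3 fell and 0 rose, beside 5.58% and 4.98% (10.6% in all). In siCop1 without Dexa 2 fell and 0 rose, beside 2.32% and 1.77% (4.09% in all), and with Dexa 3 fell and 0 rose, beside 2.97% and 2.50% (5.46% in all). The counts also held Igfbp4 in siCTRL with Dexa, and Igf1 in siCop1 both without and with Dexa. The background in which Igfbp3 did not pass was siCop1 without Dexa. The median over the 10 genes lay between -0.20 and -0.10, beside -0.0030 to 0.0030 over all genes. The 10 genes are few, and counts of this size against these shares are not read as particular to them.

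**Figure D2:**
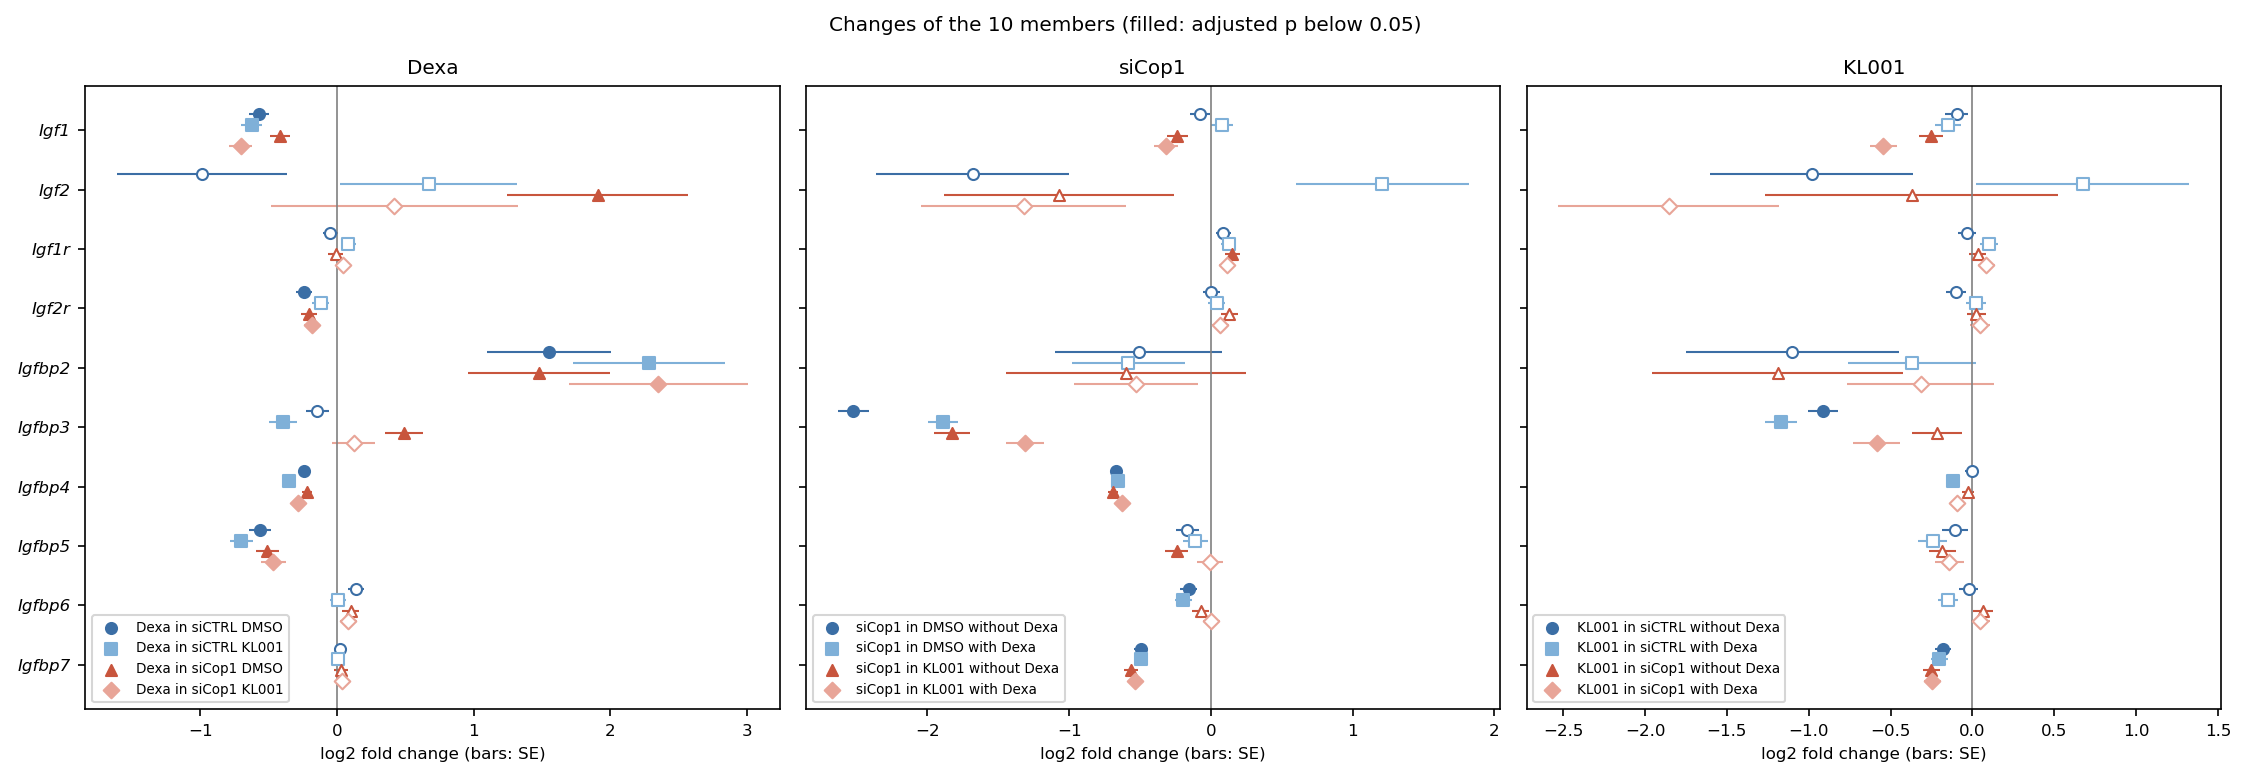
Log2 fold changes of the 10 genes with Dexa, siCop1 and KL001, each in 4 backgrounds. Bars are SEs and filled symbols have an adjusted p below 0.05; Igfbp3 lies farthest to the left with siCop1, and the wide bars of Igf2 and Igfbp2 go with their few counts.

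Igf1, the ligand with the higher level here, fell with Dexa in every background. Without Dexa its level was 17.6, 20.1 and 19.7 CPM in siCTRL DMSO, and with Dexa it was 12.4, 13.2 and 13.1 CPM. All 3 Dexa libraries lay below all 3 without, a change of -0.57 ± 0.074 (adjusted p = 3.77e-07), or 1.48-fold lower. In siCTRL KL001 the levels were 20.5, 16.2 and 16.8 CPM without and 11.3, 11.5 and 11.97 CPM with Dexa, a change of -0.62 ± 0.076 (adjusted p = 1.21e-07). In siCop1 DMSO they were 19.1, 16.6 and 18.5 and 13.2, 13.5 and 14.1 CPM, a change of -0.41 ± 0.073 (adjusted p = 5.58e-05). The groups again did not overlap in either background. The lowest levels of Igf1 in the study were in siCop1 KL001 Dexa, at 9.19, 9.33 and 9.39 CPM against 14.8, 15.9 and 14.8 CPM without Dexa, a change of -0.70 ± 0.081 (adjusted p = 4.64e-08). In these 4 comparisons Igf1 passed without each library in turn. The summed adipocyte list of 4 genes was also higher with Dexa, at 15.8 to 24.3 CPM without and 52.3 to 81.0 CPM with Dexa. That sum was nearly all Fabp4, at 15.77 to 81.04 CPM over all libraries. Adipoq, Plin1 and Lep reached at most 0.116, 0.0405 and 0.0878 CPM and were each at 0 in at least 1 group. The sum thus describes Fabp4 and not the list, and its part in the fall of Igf1 was not tested.

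siCop1 and KL001 each lowered Igf1 where the other was present. With KL001 present, siCop1 lowered it by 0.24 ± 0.072 without Dexa (adjusted p = 0.0116) and by 0.32 ± 0.086 with Dexa (adjusted p = 0.005). In DMSO the same comparisons gave -0.078 ± 0.070 and 0.076 ± 0.078, with adjusted p of 0.446 and 0.503. KL001 lowered Igf1 in siCop1 by 0.25 ± 0.072 without Dexa (adjusted p = 0.0382) and by 0.54 ± 0.083 with Dexa (adjusted p = 5.33e-05), and in cells with siCTRL gave -0.10 ± 0.070 and -0.15 ± 0.081, with adjusted p of 0.516 and 0.268. The difference between the siRNAs in the effect of KL001, averaged over both Dexa states, was -0.28 ± 0.077 with an adjusted p of 0.127, so it was not shown that the siRNAs differ. The smaller changes rest on single libraries. The siCop1 change in KL001 without Dexa lost its call without siCTRL KL001 replicate 1 (-0.13, adjusted p = 0.173). The KL001 change in siCop1 without Dexa lost it without siCop1 DMSO replicate 1 or 3 or siCop1 KL001 replicate 1 or 3, with values between -0.24 and -0.21 and adjusted p of 0.137 to 0.223.

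Igf2, the fetal growth factor expressed from the paternal allele, was near the limit of detection, with 2 to 51 counts per library. Its level was 1.37, 0.337 and 0.516 CPM in siCTRL DMSO and 0.350, 0.439 and 0.359 CPM in siCTRL DMSO Dexa. It was 0.186, 0.194 and 0.322 CPM in siCop1 DMSO and 2.06, 0.231 and 0.392 CPM in siCop1 DMSO Dexa. In the other 4 groups it ran from 0.0747 to 0.702 CPM. The highest libraries were siCTRL DMSO replicate 1 and siCop1 DMSO Dexa replicate 1. The siCop1 libraries lay below the siCTRL libraries without overlap in 3 backgrounds, DMSO without Dexa and KL001 without and with Dexa. The estimates there were -1.68 ± 0.68, -1.07 ± 0.81 and -1.32 ± 0.72 and did not pass, with adjusted p of 0.0647, 0.335 and 0.178, and the third passed without the 5 libraries of high markers (-1.25, adjusted p = 0.0352). In siCTRL with Dexa the KL001 libraries lay above the DMSO libraries (0.67 ± 0.65, adjusted p = 0.592). In the other 8 comparisons the groups overlapped. The only call was with Dexa in siCop1 DMSO, at 1.91 ± 0.66 (adjusted p = 0.0384), and without siCop1 DMSO Dexa replicate 1 it was 0.41 (adjusted p = 0.709). That library also had the highest summed squamous markers, 77.55 CPM, whose part in the value was not tested. The call was also lost without any 1 of the 3 siCop1 DMSO libraries (1.77 to 2.19, adjusted p of 0.0567 to 0.118). The strand setting of the counting is not stated, so Igf2 reads and reads of transcripts antisense to it cannot be told apart.

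**Figure D3:**
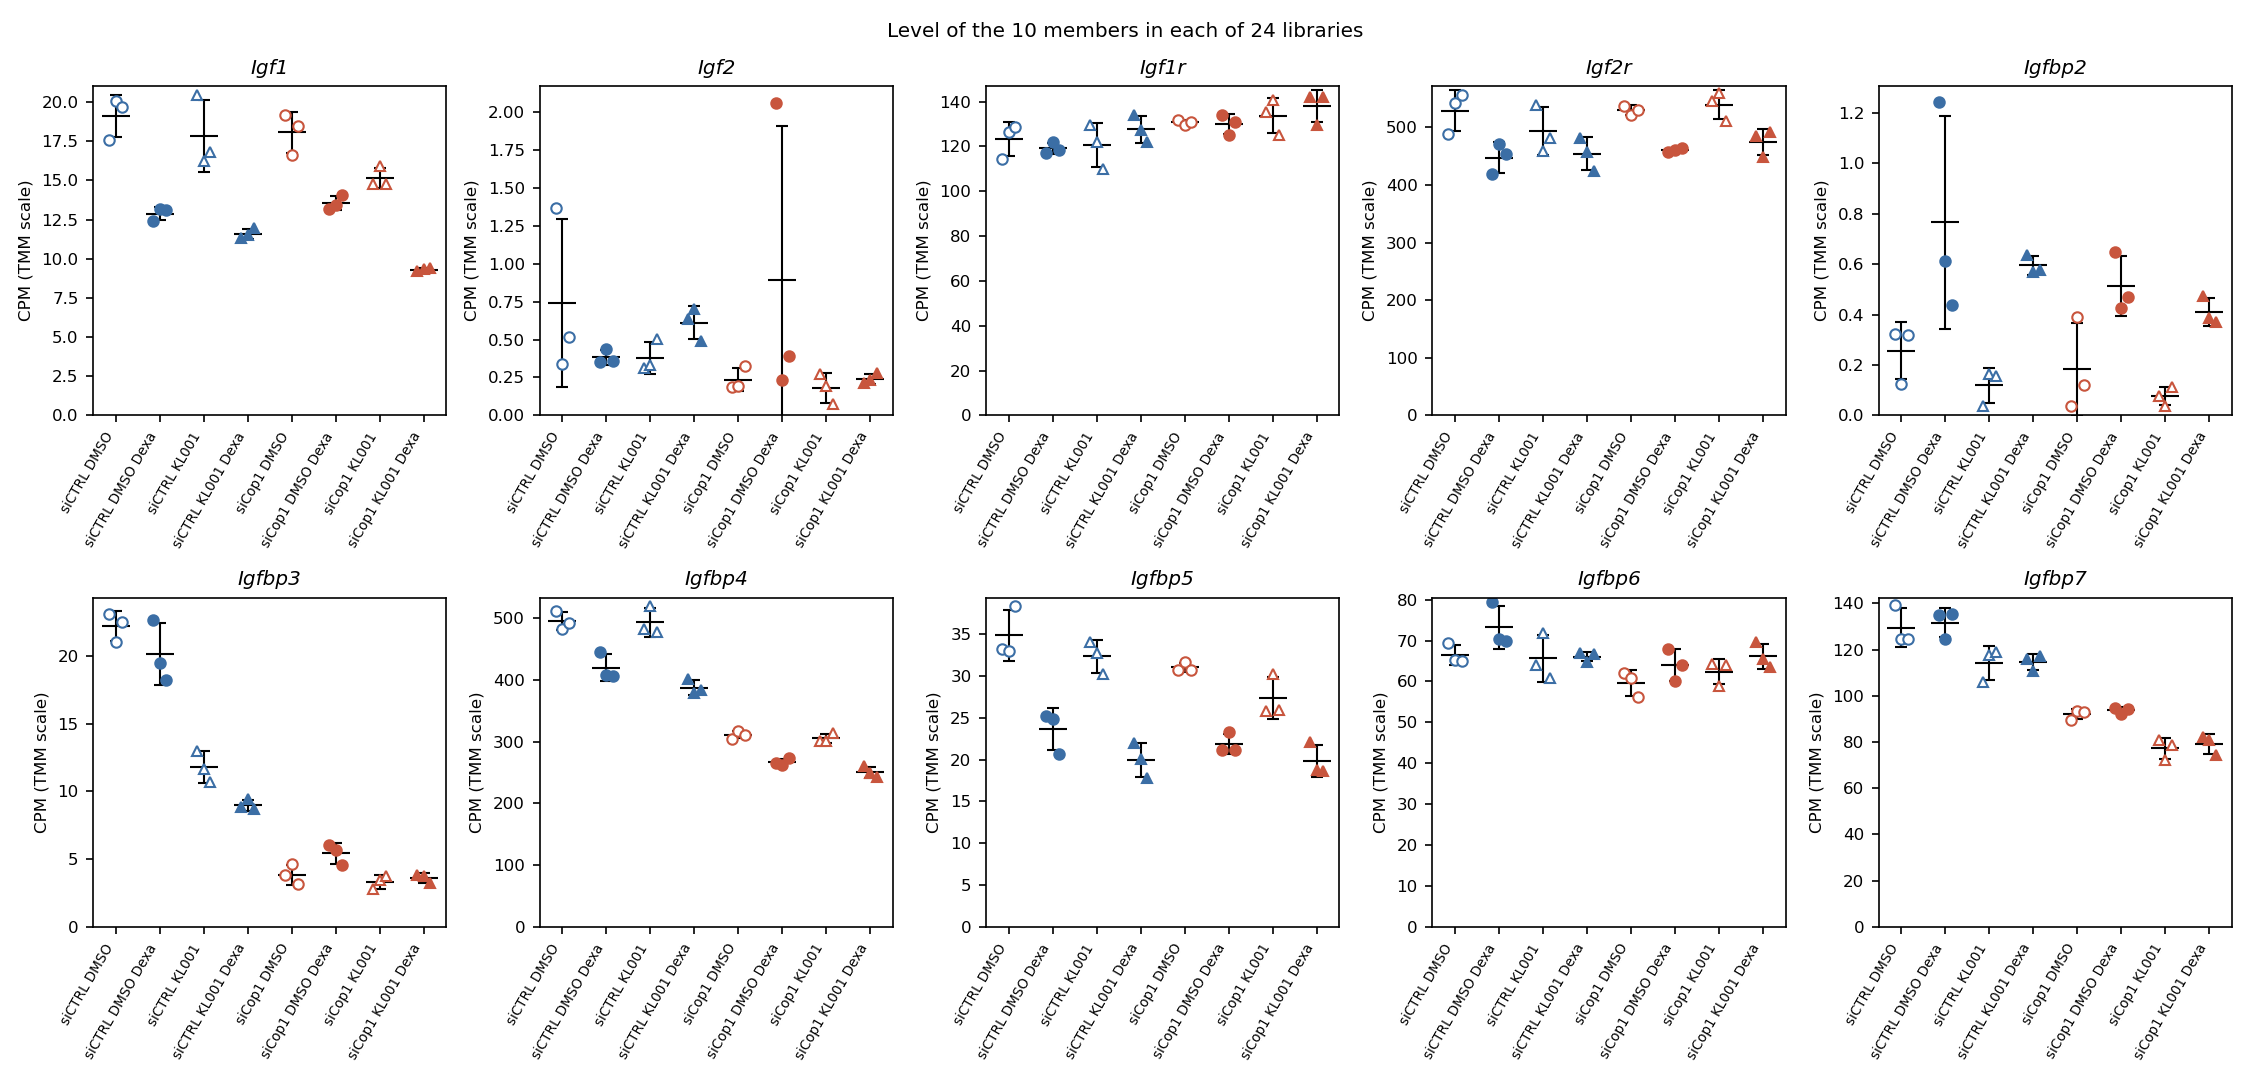
Level of each of the 10 genes (CPM, linear axis from 0) in each library of the 8 groups. Points are libraries, horizontal lines are means of 3 and bars are SDs, cut off at 0; blue is siCTRL, red siCop1, triangles KL001 and filled symbols Dexa. Igf1 and Igfbp5 step down with Dexa, and Igfbp3, Igfbp4 and Igfbp7 lie lower in every siCop1 group than in the matching siCTRL group.

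Igf1r, the signalling receptor, was the steadiest of the 10 genes by the range of its group means, 1.16-fold, and lay between 110.0 and 142.2 CPM over all libraries. Its only change was with siCop1 in KL001 without Dexa, from 129.7, 122 and 110.0 CPM in siCTRL to 136, 141 and 125 CPM in siCop1. The groups overlapped, and the change was 0.15 ± 0.054 (adjusted p = 0.0327). It lost its call without siCTRL KL001 replicate 2 or 3 or siCop1 KL001 replicate 1 or 2, with values of 0.088 to 0.16 and adjusted p of 0.0615 to 0.229. In the other 3 siCop1 comparisons the estimate was between 0.086 and 0.13 and did not pass the test.

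Igf2r, the clearance receptor, fell with Dexa in 3 of the 4 backgrounds. Its level was 489, 543 and 556 CPM in siCTRL DMSO and 419, 471 and 453 CPM with Dexa added, where all Dexa libraries lay below all others. The change was -0.24 ± 0.060 (adjusted p = 0.00406), or 1.18-fold lower. In siCop1 DMSO the level was 538, 521 and 531 CPM without and 457, 460.2 and 464 CPM with Dexa, a change of -0.20 ± 0.060 (adjusted p = 0.0153). In siCop1 KL001 it went from 546, 560.5 and 511 to 485, 449.5 and 492 CPM, a change of -0.18 ± 0.060 (adjusted p = 0.0298). These 2 pairs of groups did not overlap either. In siCTRL KL001 the groups overlapped and the estimate of -0.12 ± 0.060 did not pass (adjusted p = 0.165). The call was lost without siCTRL DMSO Dexa replicate 1 (-0.18, adjusted p = 0.0505), without siCop1 DMSO replicate 1 (-0.19, adjusted p = 0.053), and in siCop1 KL001 without siCop1 KL001 replicate 1 or 2 or siCop1 KL001 Dexa replicate 2 (-0.17 to -0.14, adjusted p of 0.0888 to 0.144). Neither siCop1 nor KL001 changed Igf2r in any of 8 comparisons.

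Igfbp3, the main carrier of the growth factors in serum and a binding protein that cells also secrete locally, changed the most of the genes with more than 1 CPM. Its level was 23.1, 21.01 and 22.5 CPM in siCTRL DMSO and 3.80, 4.63 and 3.14 CPM in siCop1 DMSO. The groups were far apart, 5.75-fold, with a change of -2.52 ± 0.11 (adjusted p = 2.81e-16). With Dexa it was 22.6, 19.5 and 18.2 CPM in siCTRL DMSO and 6.03, 5.71 and 4.55 CPM in siCop1 DMSO, 3.71-fold lower at -1.89 ± 0.11 (adjusted p = 4.47e-14). In KL001 without Dexa the levels were 13.01, 11.6 and 10.7 and 2.77, 3.44 and 3.73 CPM, and siCop1 was 3.55-fold lower at -1.83 ± 0.12 (adjusted p = 2.77e-12). In KL001 with Dexa they were 8.82, 9.44 and 8.68 and 3.84, 3.75 and 3.21 CPM, and siCop1 was 2.48-fold lower at -1.31 ± 0.13 (adjusted p = 7.66e-09). Every siCop1 library of Igfbp3 lay below every siCTRL library, over all backgrounds. All 4 changes passed without each library in turn and without the 5 libraries of high heart or squamous markers. The summed fibroblast markers were lower in each siCop1 group than in its siCTRL group, and their part in the fall was not tested.

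KL001 lowered the same gene in the cells with siCTRL. From the values above, the change was -0.91 ± 0.091 without Dexa (adjusted p = 6.49e-08) and -1.17 ± 0.10 with Dexa (adjusted p = 2.72e-09), and in both cases the 3 KL001 libraries lay below the 3 DMSO libraries. Both passed without the 5 libraries of high markers. The summed fibroblast markers were lower with KL001, 54980 to 58360 CPM in siCTRL DMSO and 48000 to 52610 CPM in siCTRL KL001, and 53290 to 54150 and 46870 to 49010 CPM with Dexa, and their part in the change was not tested. In siCop1 the KL001 change with Dexa was -0.59 ± 0.14 (adjusted p = 0.0119), and without Dexa the estimate of -0.22 ± 0.15 did not pass (adjusted p = 0.575). The change with Dexa in siCop1 cells lost its call without siCop1 DMSO Dexa replicate 1 or 2 or siCop1 KL001 Dexa replicate 3 (-0.55 to -0.51, adjusted p of 0.0585 to 0.0833), and without the 5 libraries of high heart or squamous markers (-0.55, adjusted p = 0.122).

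Dexa moved Igfbp3 in opposite directions in 2 backgrounds. It fell in siCTRL KL001 by 0.39 ± 0.11 (adjusted p = 0.0049) and rose in siCop1 DMSO by 0.49 ± 0.14 (adjusted p = 0.00917), while siCTRL DMSO gave -0.14 ± 0.085 and siCop1 KL001 gave 0.12 ± 0.16, with adjusted p of 0.249 and 0.657. The groups overlapped in siCop1 DMSO. The rise there lost its call without siCop1 DMSO replicate 3 (0.37, adjusted p = 0.0778) or siCop1 DMSO Dexa replicate 1 (0.41, adjusted p = 0.0615), the library with the high squamous markers, and without the 5 libraries together (0.41, adjusted p = 0.0795).

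In the main edgeR fit, the tests of the differences between these effects called only Igfbp3 among the 10 genes. Both calls came from averages chosen after seeing the data. In the 6 interactions within a background 0 of the 10 genes passed the edgeR test, beside 0.670% of all genes for siCop1 by Dexa in DMSO, 0.562% for siCop1 by Dexa in KL001, 0.0677% each for KL001 by Dexa in siCop1 and siCop1 by KL001 with Dexa, and 0.00% each for KL001 by Dexa in siCTRL and siCop1 by KL001 without Dexa. At an unadjusted p below 0.05 there were 2, 1, 1, 4, 1 and 1 of the 10 genes in that order. Over all 14772 genes tested there were 1123, 1133, 670, 1023, 888 and 982. DESeq2 called 1 of the 10 genes, Igfbp3, for siCop1 by Dexa in DMSO and 0 in the others. It called 115, 91, 14, 24, 3 and 15 of all genes in the same order. It gave no adjusted p for Igf2 and Igfbp2 in 5 of the 6. Averaged over the third factor, a choice made after seeing the data, 1 of the 10 genes passed for siCop1 by Dexa (1.82% of all genes) and 1 for siCop1 by KL001 (0.447%), both times Igfbp3. For KL001 by Dexa 0 passed by edgeR (0.183% of all genes) and by DESeq2 (35 of all genes). At an unadjusted p below 0.05 there were 3, beside 915 of all 14772 genes. The Dexa effect on Igfbp3 was higher in siCop1 than in siCTRL by 0.57 ± 0.12 (adjusted p = 0.0097). The KL001 effect was less negative in siCop1 by 0.64 ± 0.13 (adjusted p = 0.0127). Both passed without each of the 24 libraries in turn, with adjusted p of 0.00221 to 0.0321 and 0.00563 to 0.0489. Without the 5 libraries of high heart or squamous markers they were 0.47 (adjusted p = 0.122) and 0.65 (adjusted p = 0.0666), both with fewer samples.

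**Figure D4:**
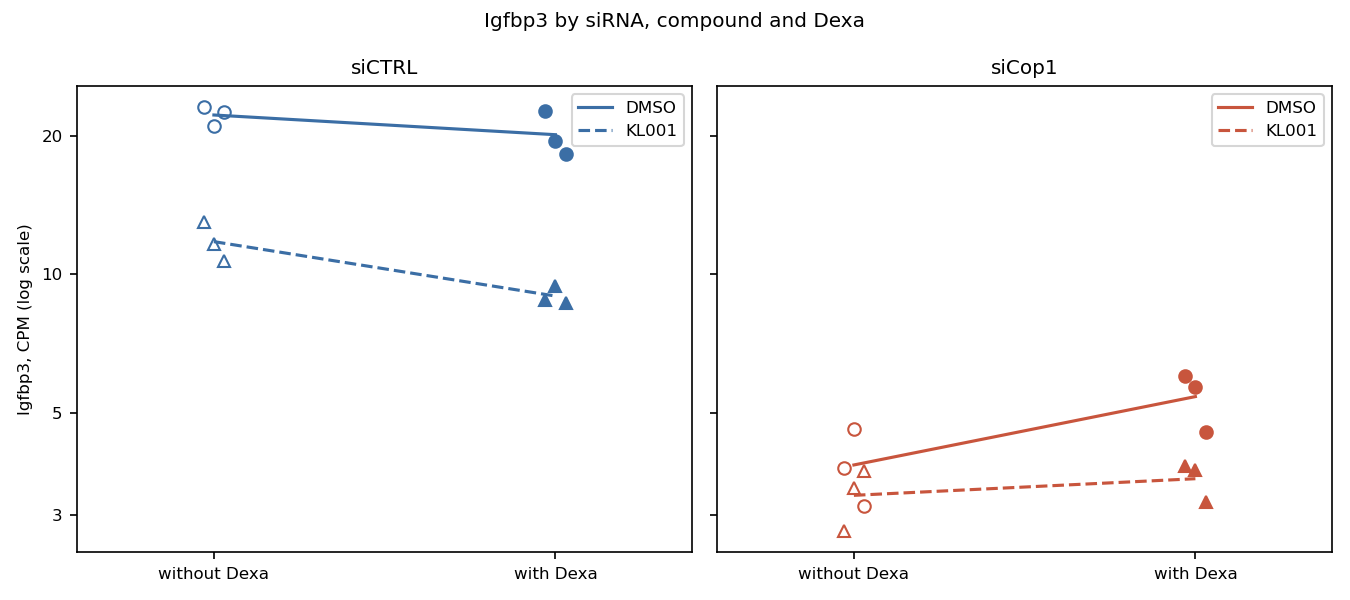
Igfbp3 (CPM, log scale) without and with Dexa, in siCTRL (left) and siCop1 (right). Points are libraries, lines join the means of 3, and solid lines are DMSO and dashed lines KL001; the lines slope down in siCTRL and up in siCop1, and the gap between DMSO and KL001 is wider in siCTRL.

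Igfbp4, a binding protein mainly known to inhibit the growth factors until the protease Pappa cleaves it, fell with siCop1 and with Dexa. Its level was 512, 482 and 492 CPM in siCTRL DMSO, 305, 317 and 312 CPM in siCop1 DMSO and 446, 408 and 406 CPM in siCTRL DMSO Dexa. These groups did not overlap, and siCop1 lowered it 1.59-fold, -0.67 ± 0.037 (adjusted p = 1.64e-14). With both siCop1 and Dexa the level was 266, 263 and 273 CPM. siCop1 was also set against siCTRL under each remaining treatment. Its effect on Igfbp4 was -0.65 ± 0.038 for DMSO plus Dexa (adjusted p = 3.42e-14). Under KL001 the siCop1 effect was -0.69 ± 0.037 when Dexa was absent (adjusted p = 9.32e-15). It was -0.63 ± 0.038 when KL001 and Dexa were both present (adjusted p = 9.94e-14). In KL001 the levels were 483, 520.1 and 477 CPM for siCTRL and 302, 301 and 314 CPM for siCop1, and with Dexa 402, 379 and 384 CPM and 261, 249 and 243 CPM. All siCop1 libraries lay below all siCTRL libraries in every background. The changes with Dexa were -0.24 ± 0.037 in siCTRL DMSO, -0.35 ± 0.037 in siCTRL KL001, -0.22 ± 0.038 in siCop1 DMSO and -0.29 ± 0.038 in siCop1 KL001, with adjusted p between 9.85e-09 and 3.81e-05. These 8 changes passed without each library in turn. The siCop1 by Dexa terms for Igfbp4 were 0.018 ± 0.053 and 0.062 ± 0.053 and did not pass. KL001 lowered Igfbp4 in siCTRL with Dexa (-0.12 ± 0.037, adjusted p = 0.0434), a call lost without siCTRL DMSO Dexa replicate 1 or siCTRL KL001 Dexa replicate 2 or 3 (-0.11 to -0.075, adjusted p of 0.147 to 0.292).

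Igfbp7, a secreted relative also found in the extracellular matrix, fell with siCop1 and with KL001 in every background and did not pass the test with Dexa in any when all libraries were used. Its level was 139, 124 and 125 CPM in siCTRL DMSO, 106, 118 and 119 CPM in siCTRL KL001, 89.4, 93.6 and 93.1 CPM in siCop1 DMSO and 80.99, 72.2 and 78.5 CPM in siCop1 KL001. The libraries stepped down in that order without overlap. siCop1 gave -0.49 ± 0.050 in DMSO without Dexa (adjusted p = 7.27e-09), 1.41-fold lower, and -0.56 ± 0.051 in KL001 (adjusted p = 7.7e-10). With Dexa the levels were 135, 125 and 135 CPM in siCTRL DMSO, 116, 111 and 117 CPM in siCTRL KL001, 94.8, 92.2 and 94.3 CPM in siCop1 DMSO and 82.1, 80.9 and 74.3 CPM in siCop1 KL001. The siCop1 changes there were -0.49 ± 0.050 and -0.53 ± 0.051 (adjusted p = 7.86e-09 and 2.89e-09). The 4 siCop1 changes passed without each library in turn. The KL001 changes were smaller. They were -0.18 ± 0.049 in siCTRL without Dexa (adjusted p = 0.0217), -0.20 ± 0.050 in siCTRL with Dexa (adjusted p = 0.00777), -0.25 ± 0.051 with siCop1 alone (adjusted p = 0.00241) and -0.24 ± 0.052 with siCop1 and Dexa (adjusted p = 0.00308). In siCTRL the calls were lost without siCTRL DMSO replicate 1 (-0.13, adjusted p = 0.149), siCTRL KL001 replicate 1 (-0.13, adjusted p = 0.116), siCTRL DMSO Dexa replicate 1 (-0.19, adjusted p = 0.0501) or siCTRL KL001 Dexa replicate 2 (-0.18, adjusted p = 0.0576). Without the 5 libraries of high heart or squamous markers the first of them was -0.15 (adjusted p = 0.112).

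Igfbp2, a binding protein abundant in fetal tissue, was scarce here, with 1 to 32 counts per library, but was higher with Dexa in each background. Its level was 0.325, 0.126 and 0.318 CPM in siCTRL DMSO and 1.25, 0.614 and 0.438 CPM with Dexa. It was 0.0388, 0.165 and 0.155 CPM in siCTRL KL001 and 0.638, 0.571 and 0.576 CPM with Dexa. All Dexa libraries lay above the others in both cases, with changes of 1.55 ± 0.45 (adjusted p = 0.00864) and 2.28 ± 0.56 (adjusted p = 0.00171). In siCop1 DMSO the levels were 0.0373, 0.389 and 0.121 CPM without and 0.648, 0.424 and 0.471 CPM with Dexa, a change of 1.48 ± 0.52 (adjusted p = 0.033). In siCop1 KL001 they were 0.0780, 0.0386 and 0.112 and 0.475, 0.387 and 0.372 CPM, a change of 2.35 ± 0.66 (adjusted p = 0.00569). The groups did not overlap in these backgrounds either. Both KL001 backgrounds kept the call without each library in turn. In siCTRL DMSO it was lost without siCTRL DMSO replicate 2 (1.26, adjusted p = 0.0589) or siCTRL DMSO Dexa replicate 1 (1.01, adjusted p = 0.152). In siCop1 DMSO it was lost without replicate 1 or 3 of either group (0.98 to 1.53, adjusted p of 0.0566 to 0.2), with DESeq2 (adjusted p = 0.0593) and without the 5 libraries of high markers (1.28, adjusted p = 0.127). Neither siCop1 nor KL001 changed Igfbp2 in any of 8 comparisons. The estimates were -0.60 to -0.51 with siCop1 and -1.19 to -0.315 with KL001. Without Dexa, KL001 was 2.14-fold lower in siCTRL and 2.28-fold lower in siCop1 and did not pass (adjusted p = 0.364 and 0.501). At this depth changes of that size could be missed.

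Igfbp5, a binding protein that attaches to the extracellular matrix, fell with Dexa in all 4 backgrounds. Its level was 33.2, 33.05 and 38.4 CPM in siCTRL DMSO and 25.3, 24.9 and 20.7 CPM with Dexa, which did not overlap, a change of -0.56 ± 0.083 (adjusted p = 7.35e-06) or 1.48-fold lower. In siCTRL KL001 the levels were 34.1, 32.8 and 30.2 and 21.9, 20.1 and 17.8 CPM, a change of -0.70 ± 0.086 (adjusted p = 4.38e-07). In siCop1 DMSO they were 30.7, 31.7 and 30.8 and 21.2, 23.2 and 21.1 CPM, a change of -0.51 ± 0.085 (adjusted p = 4.45e-05). In siCop1 KL001 they were 25.9, 30.3 and 25.9 and 22.1, 18.8 and 18.6 CPM, a change of -0.46 ± 0.088 (adjusted p = 0.000211). The groups did not overlap in any background, and the 4 changes passed without each library in turn. siCop1 lowered Igfbp5 in KL001 without Dexa (-0.24 ± 0.082, adjusted p = 0.0245), a call lost without replicate 1 or 2 of siCTRL KL001 or replicate 1 or 3 of siCop1 KL001 (-0.24 to -0.20, adjusted p of 0.066 to 0.103) and without the 5 libraries of high markers (-0.22, adjusted p = 0.0705). Igfbp2 and Igfbp5 are neighbours on chromosome 1 of GRCm38, at chr1:72824503-72852474 on the plus strand and chr1:72857932-72874884 on the minus strand. Their ends face each other across 5457 bases, and the neighbours moved in opposite directions with Dexa.

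Igfbp6, the binding protein that prefers Igf2, ran from 56.1 to 79.4 CPM and its group means ranged 1.23-fold. With siCop1 in DMSO it went from 69.3, 65.3 and 64.95 to 62.04, 60.8 and 56.1 CPM without Dexa and from 79.4, 70.3 and 69.95 to 67.9, 60.1 and 63.9 CPM with Dexa. Neither pair of groups overlapped, and the changes were -0.16 ± 0.059 (adjusted p = 0.0454) and -0.20 ± 0.059 (adjusted p = 0.0117). Without Dexa the call was lost without any 1 of the 3 siCTRL DMSO libraries or siCop1 DMSO replicate 2 or 3 (-0.17 to -0.12, adjusted p of 0.0703 to 0.208), and with Dexa without siCTRL DMSO Dexa replicate 1 (-0.14, adjusted p = 0.082) or siCop1 DMSO Dexa replicate 2 (-0.15, adjusted p = 0.0795). RLE scaling and DESeq2 gave adjusted p of 0.0598 and 0.0619 without Dexa, and leaving out the 5 libraries of high markers gave -0.12 (adjusted p = 0.0952). In KL001 the groups overlapped and siCop1 did not change Igfbp6. The estimates there were -0.072 ± 0.059 without and 0.0013 ± 0.059 with Dexa (adjusted p = 0.384 and 0.99). KL001 in siCTRL with Dexa gave -0.15 ± 0.059 (adjusted p = 0.112), which passed without those 5 libraries (-0.18, adjusted p = 0.0181).

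The promoters of the 3 binding proteins that fell with siCop1 in every background, and of Igfbp2, which rose with Dexa, are shown because the first 3 moved together and Igfbp2 alone of the 10 genes rose with Dexa in every background. The sequences are the 250 bases before the start of transcription, 5′ to 3′ on the strand of the gene, from RefSeq on GRCm38.p6, in which all 10 genes were found, with 14 windows. Capitals mark matches on either strand to the arm AGAACA of the glucocorticoid response element, the AP-1 site TGANTCA, the ETS site CCGGAAG, the E-box CACGTG, the GC box GGGCGG and the TATA box TATAAA, which do not overlap in these windows.
Igfbp3, chr11:7213924-7214173, minus strand: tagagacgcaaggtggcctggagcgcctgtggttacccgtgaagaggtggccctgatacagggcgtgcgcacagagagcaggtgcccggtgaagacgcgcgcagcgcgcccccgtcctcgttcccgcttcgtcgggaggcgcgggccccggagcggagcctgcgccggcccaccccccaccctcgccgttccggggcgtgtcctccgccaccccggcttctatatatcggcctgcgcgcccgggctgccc
Igfbp4, chr11:99040994-99041243, plus strand: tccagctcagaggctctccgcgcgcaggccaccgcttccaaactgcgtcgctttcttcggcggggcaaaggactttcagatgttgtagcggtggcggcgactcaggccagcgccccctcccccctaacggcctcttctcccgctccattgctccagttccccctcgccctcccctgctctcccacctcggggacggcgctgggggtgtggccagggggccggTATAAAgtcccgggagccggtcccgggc
Igfbp7, chr5:77408046-77408295, minus strand: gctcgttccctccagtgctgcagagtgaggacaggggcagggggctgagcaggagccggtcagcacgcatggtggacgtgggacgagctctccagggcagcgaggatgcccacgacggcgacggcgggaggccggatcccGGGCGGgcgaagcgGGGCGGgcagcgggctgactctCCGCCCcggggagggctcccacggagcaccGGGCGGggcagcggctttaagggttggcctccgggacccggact
Igfbp2, chr1:72824230-72824479, plus strand: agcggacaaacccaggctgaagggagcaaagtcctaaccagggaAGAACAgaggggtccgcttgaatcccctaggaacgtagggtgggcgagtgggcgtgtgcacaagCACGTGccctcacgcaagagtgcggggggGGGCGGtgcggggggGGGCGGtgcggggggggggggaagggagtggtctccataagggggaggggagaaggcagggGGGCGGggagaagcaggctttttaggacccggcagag

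The Igfbp3 window held none of these letters, the Igfbp4 window held TATAAA 28 bases before the start, and the Igfbp7 window held GGGCGG 4 times. The 3 windows thus shared no match. The Igfbp2 window held AGAACA and the E-box at 1 place each, and the GC box at 3. Igfbp2 has 2 windows in RefSeq, and the second, at chr1:72825137-72825386 and not printed, held the AP-1 site at 1 place and no other of these motifs. Over all 32851 windows of this length, AGAACA was found in 16.1%, TGANTCA in 6.75%, CCGGAAG in 6.91%, CACGTG in 6.02%, GGGCGG in 32.7% and TATAAA in 12.4%. The full palindrome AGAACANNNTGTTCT was in 0.009% of all windows and in none of the 14 windows of these genes. Matches are descriptions of the letters and say nothing about binding.

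The pattern of Igfbp3 over the 8 groups was compared with that of 12467 genes at 1 CPM or more, by the root mean square difference of log2 group means after centring each gene. The closest were S100b at 0.29, Fmod at 0.291 and Des at 0.339, where the median gene differed by 1.03 on the same scale. A gene level over the 8 groups would also differ from Igfbp3 by 1.03, so the median is no yardstick of likeness. S100b encodes a calcium-binding protein, Fmod the matrix proteoglycan fibromodulin and Des the muscle intermediate filament desmin. Des belongs to the heart muscle markers, which summed to 6.497 to 105.6 CPM in siCTRL and 2.61 to 5.09 CPM in siCop1 libraries, and the part of those cells in the likeness was not tested. None of the other members had a change of at least 2-fold with a mean of at least 1 CPM, the condition for this comparison.

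Of 43 other genes of the pathway, listed by role, 34 could be tested. With Dexa, 12 rose and 10 fell in siCTRL DMSO, 13 and 9 in siCTRL KL001, 11 and 11 in siCop1 DMSO, and 9 and 8 in siCop1 KL001. That is 64.7%, 64.7%, 64.7% and 50% of the 34, beside 26.8%, 26.8%, 23.7% and 24.5% of all genes tested. Because the lists were chosen with earlier results of these data known, nothing particular to them is read from these shares. Without the 5 libraries of high markers the counts were 12 and 10, 13 and 8, 11 and 10, and 9 and 9. In siCTRL DMSO the changes with Dexa included some mediators between receptor and nucleus. Irs1, an adaptor of the receptors, fell from 71.3 ± 7.05 to 42.7 ± 1.39 CPM (SD, n = 3), a change of -0.74 ± 0.060, while the related Irs2 rose by 0.47 ± 0.051. Foxo3, a transcription factor that Akt holds out of the nucleus, rose from 68.95 ± 2.60 to 146 ± 5.92 CPM, a change of 1.09 ± 0.052, while Foxo1 fell by 0.34 ± 0.043. Of the regulatory subunits of PI3K, Pik3r1 rose by 0.80 ± 0.059 and Pik3r3 fell by 0.51 ± 0.045. Stc1, one of 2 stanniocalcins that inhibit the proteases of the binding proteins, fell from 26.1 ± 1.15 to 8.77 ± 0.876 CPM, a change of -1.57 ± 0.082, while the other, Stc2, rose by 0.47 ± 0.055. Pappa2, one of those proteases, rose by 0.71 ± 0.21, and the insulin relative Insl6 by 1.38 ± 0.25, both at under 2 CPM. Pappa2 lost its call without siCTRL DMSO Dexa replicate 1 (0.64, adjusted p = 0.0501). The rise of Stc2 with Dexa was not general. Its change was 0.29 ± 0.055 in siCTRL KL001 but -0.35 ± 0.050 in siCop1 DMSO (adjusted p = 0.000101 and 2.41e-06).

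With siCop1, 4 of the 34 genes rose and 15 fell in DMSO without Dexa, 4 and 14 in DMSO with Dexa, 4 and 13 in KL001 without Dexa, and 5 and 12 in KL001 with Dexa. Of all genes, 12.8% rose and 16.6% fell in the first, 14.4% and 16.7% in the second, 14.5% and 18.2% in the third, and 13.7% and 16.3% in the fourth. The lists were chosen with earlier results of these data known, and nothing particular to them is read from these counts. Without the 5 libraries of high markers the counts were 4 and 14, 4 and 14, 3 and 14, and 5 and 13. Of the 6 proteases of the binding proteins and their regulators, 1 rose and 4 fell in DMSO without Dexa. Pappa, which cleaves Igfbp4, fell from 46.2 ± 4.85 to 15.8 ± 0.0386 CPM (SD, n = 3), a change of -1.55 ± 0.10, and Stc2, its inhibitor, rose from 23.4 ± 1.36 to 44.6 ± 2.80 CPM, a change of 0.93 ± 0.052. The serine proteases Htra1 and Htra3 fell by 0.42 ± 0.041 and 0.41 ± 0.093. In DMSO with Dexa, 0 of these 6 genes rose and 4 fell, so Stc2 did not rise there. In KL001, 1 rose and 4 fell without Dexa, and 1 rose and 3 fell with Dexa. The 4 genes of growth hormone input, Ghr, Stat5a, Stat5b and Socs2, fell in DMSO without Dexa by 0.16 to 0.32 on the log2 scale, a list singled out after its values were seen. Stat5a lost its call there without siCop1 DMSO replicate 2 (-0.16, adjusted p = 0.0577). All 4 also fell in KL001 without Dexa. With Dexa, Stat5a and Stat5b fell in both DMSO and KL001, but Ghr (-0.077 ± 0.042 and -0.063 ± 0.042, adjusted p = 0.163 and 0.279) and Socs2 (-0.017 ± 0.045 and -0.060 ± 0.046, adjusted p = 0.816 and 0.354) did not pass. Ghr passed in both with the length and GC trend removed (-0.15 and -0.11). H19, the maternally expressed RNA 72622 bases from Igf2, fell from 43.01 ± 1.58 to 22.3 ± 1.78 CPM, a change of -0.95 ± 0.12. Irs1, Foxo1 and Igf2bp2, which encodes a protein that binds Igf2 mRNA, rose by 0.25 ± 0.057, 0.29 ± 0.042 and 0.16 ± 0.034. With KL001, 2 rose and 2 fell in siCTRL without Dexa, 4 and 4 in siCTRL with Dexa, 0 and 1 with siCop1 alone, and 2 and 1 with siCop1 and Dexa, or 11.8%, 23.5%, 2.94% and 8.82% of the 34 beside 6.73%, 10.6%, 4.09% and 5.46% of all genes. These counts are small, and most rest on single libraries. The first, 4, was 2 without siCTRL DMSO replicate 3 or siCTRL KL001 replicate 2. The second, 8, was 3 to 5 without replicate 1 or 2 of siCTRL DMSO Dexa or replicate 1 or 3 of siCTRL KL001 Dexa. The fourth, 3, was 1 without siCop1 DMSO Dexa replicate 2 or 3 or siCop1 KL001 Dexa replicate 3. Without the 5 libraries of high markers the 4 counts were 2, 6, 3 and 3. In the siCTRL cells without Dexa, Stc1 fell from 26.1 ± 1.15 to 15.9 ± 0.987 CPM, a change of -0.71 ± 0.074, the adaptor Grb14 fell by 0.21 ± 0.059, and H19 and Igf2bp2 rose by 0.39 ± 0.11 and 0.17 ± 0.034. H19 lost its call without any 1 of the 6 libraries (0.35 to 0.43, adjusted p of 0.0565 to 0.135), and Grb14 without siCTRL DMSO replicate 1 or 3 or siCTRL KL001 replicate 1 or 2 (-0.20 to -0.18, adjusted p of 0.0756 to 0.0908). Both lost it without the 5 libraries of high markers (0.42 and -0.18, adjusted p = 0.11 and 0.191).

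**Figure D5:**
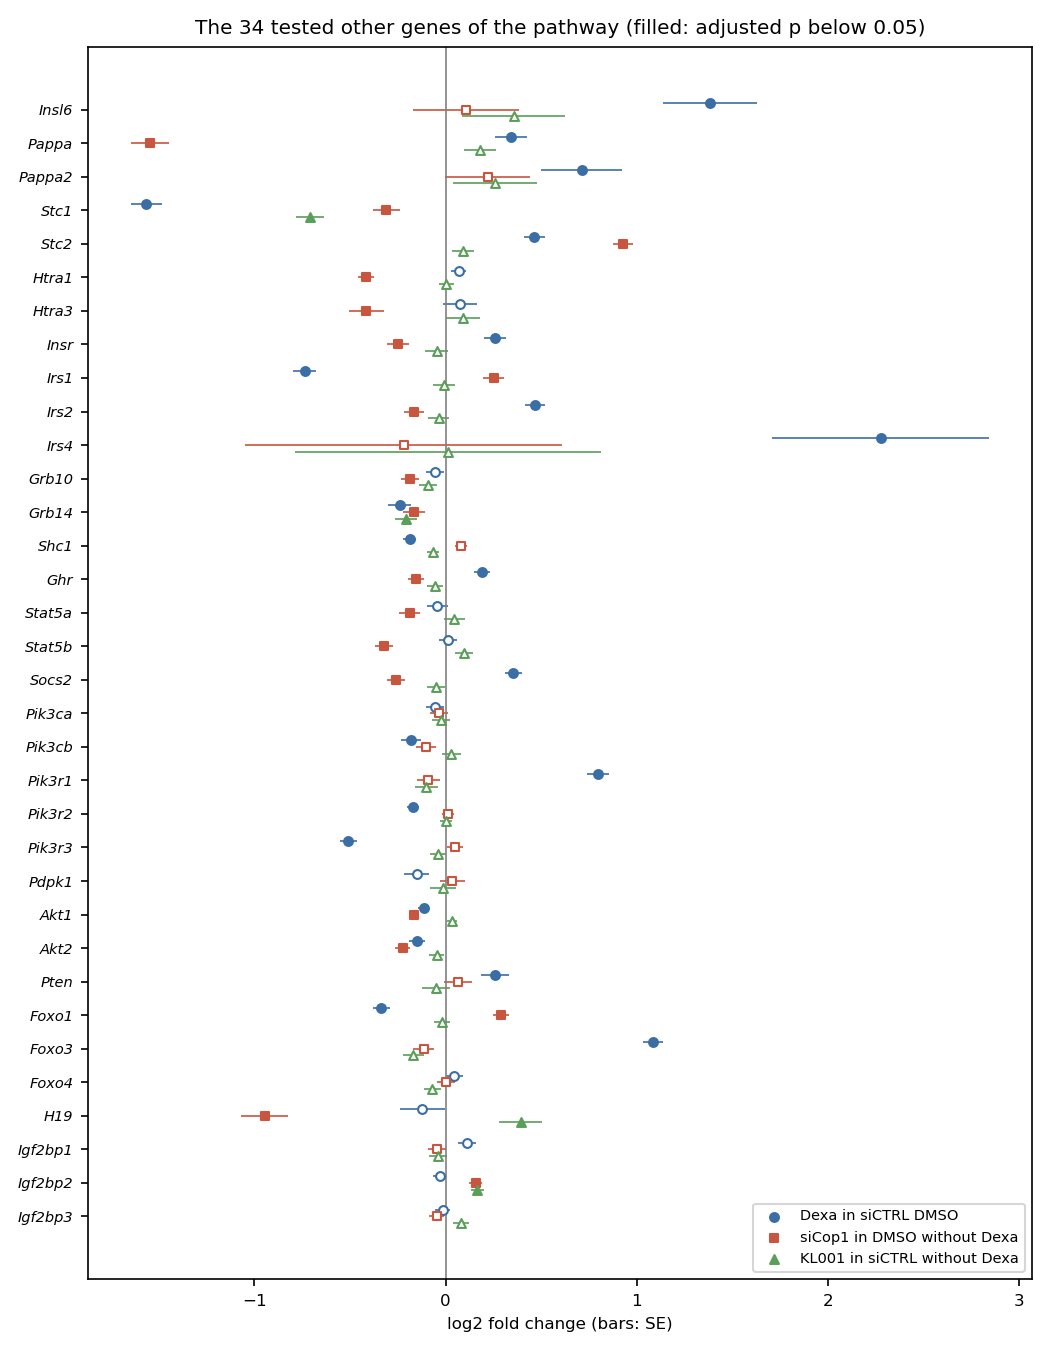
Log2 fold changes of the 34 tested other genes of the pathway with Dexa in siCTRL DMSO, with siCop1 in DMSO without Dexa and with KL001 in siCTRL without Dexa. Bars are SEs and filled symbols have an adjusted p below 0.05; the 3 comparisons share the siCTRL DMSO libraries, so a gene's 3 values are not independent.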

How the data were processed

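mRNA of 24 libraries was sequenced as single reads from a stranded kit, per the labels' protocols. The submitters' processing notes name bcl2fastq 1.8.4, STAR 2.4.5a, featureCounts, Subread 1.4.6-p3, Picard 1.126, DESeq2 and the build GRCm38 (mm10). The strand setting is not given in the sources used here. The authors deposited raw read counts per gene symbol. They were used as deposited, with 0 unused columns.

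Low genes were removed by filterByExpr (minimum count 10, minimum total 15) in R 4.3.3, and the rest were scaled with TMM and tested with edgeR 4.0.16 (quasi-likelihood, robust, two-sided, Benjamini-Hochberg) over the 24 libraries together, modelling the 8 groups without covariates. The biological coefficient of variation was 3.71%. The code was tested on simulated data. There were 12 simple comparisons, 6 interactions and 3 averaged interactions. Replicates differed beyond counting noise (chi-square per degree of freedom 1.58 to 9.26). Exon lengths and coordinates are from GENCODE M21. Members and lists were chosen with earlier results of these data known. All 10 members were described. Other pathway genes were named where called with Dexa in siCTRL DMSO, with siCop1 in DMSO or with KL001 in siCTRL (both without Dexa), up to 4 per direction by size of change, with a mean of at least 1 CPM, apart from Ghr, Stat5a, Stat5b and Socs2, given as a whole list, and Stc2 and Irs2 with Dexa, all added after their values were seen. One gene of the pathway list is not reported here.

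Deviations of same-numbered replicates correlated above 0.1 in every pair in 2 of 12 simple comparisons (range -0.43 to 0.57), Dexa in siCTRL KL001 and KL001 in siCTRL with Dexa. A fit with the replicate block changed no member's call in those 2. Alternatives were RLE scaling, no filter, the block, DESeq2 1.42.0, only the groups compared, each library left out, and 2 chosen after seeing the data: leaving out 5 libraries, and removing each library's trend with length and GC content (natural splines, 4 degrees of freedom; all 10 members and 99% of tested genes had values). They were computed for the members and the counts of calls and, also after seeing the data, for the named pathway genes.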

Additional observations from a re-analysis of the deposited data

Results flagged for a closer look

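The 2 averaged interactions of Igfbp3 are given again here because they passed a test of the difference between the siRNAs with all libraries used. The averaging was chosen after seeing the data, and 0 of the 10 genes passed by edgeR in the 6 interactions within a background. Both calls were lost without the 5 libraries of high heart or squamous markers. DESeq2 gave no adjusted p for Igfbp3 in the averaged siCop1 by KL001. The Dexa effect was higher in siCop1 than in siCTRL by 0.574 on the log2 scale, averaged over DMSO and KL001. The 4 Dexa effects behind it were -0.14 and -0.39 in siCTRL and 0.49 and 0.12 in siCop1, in DMSO and KL001. The KL001 effect was higher in siCop1 by 0.638, averaged over both Dexa states. The 4 KL001 effects behind it were -0.91 and -1.17 in siCTRL and -0.22 and -0.59 in siCop1, without and with Dexa. In siCop1 the gene rests on 69 counts at the lowest library, against 640 at the highest library of siCTRL.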

How the results depend on the processing

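Of the values recomputed for single genes, 0 changed sign where either fit passed the threshold. Signs that changed where neither fit passed were not counted. Igf2 with siCop1 in DMSO with Dexa, for example, was 1.208 and fell to -0.293 with a single library left out. RLE scaling left 77 of 78 on the same side of the threshold, the replicate block 74 of 78, DESeq2 68 of 73, only the groups compared 60 of 70, no filter 62 of 78, the length and GC trend 66 of 78, leaving out the 5 libraries of high heart or squamous markers 65 of 78, and leaving out single libraries 509 of 570. Low depth limits Igf2 and Igfbp2, whose changes rest on 1 to 51 counts per library. The cause of the shifts below was not tested, except that leaving out libraries means fewer samples.

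Counts of the 10 genes moved as follows. With no filter on low counts, KL001 in siCTRL with Dexa gave 5 genes, siCop1 by Dexa in DMSO 2, siCop1 by KL001 without Dexa 1 and with Dexa 2. With the replicate block, KL001 in siCop1 without Dexa gave 1, because Igf1 lost its call (adjusted p = 0.0519). For siCop1 by Dexa in DMSO the block gave 1, because Igfbp3 gained a call (adjusted p = 0.0391). The block added calls for Igfbp6 with Dexa in siCTRL DMSO (adjusted p = 0.0473) and Igf2 with siCop1 in DMSO without Dexa (adjusted p = 0.0422), and changed no other call. DESeq2 gave 1 for KL001 in siCop1 without Dexa and 1 for siCop1 by Dexa in DMSO, and no adjusted p for Igfbp3 in the averaged siCop1 by KL001. Only the groups compared gave 1 for KL001 in siCTRL without Dexa. Without the 5 libraries, Dexa in siCop1 DMSO gave 4, KL001 in siCTRL without Dexa 1 and both averaged interactions of siCop1 0. With the length and GC trend removed, siCop1 by Dexa in DMSO gave 1 and the averaged siCop1 by KL001 3.

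Counts over all genes moved as well. For KL001 in siCTRL without Dexa they were 225 with only the groups compared and 594 without the 5 libraries, against 994. With only the groups compared, KL001 in siCop1 gave 950 without Dexa and 1435 with Dexa, against 604 and 807. For siCop1 by Dexa in DMSO they were 230 with no filter and 169 with the GC trend removed, against 99, and in KL001 156, 143 and, with only the groups compared, 52, against 83. For KL001 by Dexa in siCTRL they were 133 with no filter, 3 with DESeq2, 1 without the 5 libraries and 5 with the GC trend removed, against 0. In siCop1 they were 5 with RLE, 43 with no filter, 5 with the block, 24 with only the groups compared and 22 with the GC trend removed, against 10. For siCop1 by KL001 without Dexa they were 61 with no filter, 15 with DESeq2, 6 without the 5 libraries and 23 with the GC trend removed, against 0, and with Dexa 59, 24 and 43 with no filter, DESeq2 and the GC trend and 5 with the block, against 10. Averaged, siCop1 by Dexa gave 441 with the GC trend removed, against 269. Averaged siCop1 by KL001 gave 106 with no filter, 38 without the 5 libraries and 172 with the GC trend removed, against 66, and averaged KL001 by Dexa 79 with no filter and 47 with the GC trend, against 27.

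Leaving out single libraries moved the count of the 10 genes between 3 and 6 for Dexa in siCTRL DMSO, 4 and 7 in siCop1 DMSO, 4 and 5 for siCop1 in KL001 without Dexa, 1 and 2 for KL001 in siCTRL without Dexa, 1 and 4 in siCTRL with Dexa, 1 and 2 with siCop1 alone, 2 and 3 with siCop1 and Dexa, 0 and 1 for siCop1 by Dexa in DMSO, and 1 and 2 for the averaged siCop1 by KL001. Over all genes it moved the count between 653 and 1165 for KL001 in siCTRL without Dexa, 928 and 1416 in siCTRL with Dexa, 421 and 461 with siCop1 alone, 502 and 611 with siCop1 and Dexa, 43 and 94 for siCop1 by Dexa in KL001, 0 and 3 and 1 and 7 for KL001 by Dexa in siCTRL and in siCop1, 0 and 6 and 2 and 10 for siCop1 by KL001 without and with Dexa, 37 and 83 for the averaged siCop1 by KL001, and 15 and 33 for the averaged KL001 by Dexa.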
